A study of Mus musculus with 24 samples.

Results

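A set of 38 genes that act in DNA replication and cell division was followed in RNA from microglia and astrocytes of adult mice. It comprised 24 genes of mitosis (Mki67, Top2a, Birc5, Aurka, Aurkb, Cdk1, Ccna2, Ccnb1, Ccnb2, Bub1, Bub1b, Cenpe, Cenpf, Kif11, Kif20a, Kif23, Nusap1, Tpx2, Plk1, Cdc20, Ube2c, Prc1, Ttk and Melk) and 14 genes of S phase (Cdc45, Mcm2 to Mcm7, Pcna, Rrm1, Rrm2, Tyms, Tk1, Uhrf1 and E2f1). The members were a fixed list of names, chosen with earlier results of these data known. They were matched by Ensembl identifier to 53700 identifiers in the microglia tables and 55487 in the astrocyte tables. All 38 were found in both, 38 passed the filter on low counts in microglia and 35 in astrocytes. There were 24 libraries, 3 in each of 8 groups. Saline controls and LPS controls were littermates that kept 1 or more working Serpine2 alleles, and saline knockouts and LPS knockouts were Serpine2-/-. LPS, lipopolysaccharide, is a cell wall lipid of Gram-negative bacteria and a strong trigger of inflammation. Microglia came from whole brain and astrocytes from cerebral cortex, both taken up on antibody-coated dishes (immunopanning). The labels gave no LPS dose, no time after injection and no account of the deleted allele, and they did not say that the 3 libraries of a group came from separate animals. The p-values therefore measure the spread between these libraries.

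A dividing cell first copies its DNA in S phase and then separates the copies in mitosis. S phase genes are switched on mainly by E2F transcription factors, whereas the mitosis genes are switched on later, by MYB-MuvB and FOXM1 complexes that act through a promoter element named the cell cycle homology region (CHR), often beside CCAAT boxes bound by the factor NF-Y. Microglia are long-lived macrophages of the brain that renew slowly in the healthy adult and can divide in response to injury or inflammation, and cortical astrocytes of adult mice seldom divide.

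Reads counted in genes were 4506142 to 13621776 for a microglia library and 10944765 to 25135252 for an astrocyte library. Serpine2 was lower in every knockout library (16.9 to 20.6 CPM in microglia, 16.4 to 22.2 CPM in astrocytes) than in every control library (46.4 to 96.2 and 78.2 to 169 CPM). CPM is the read count of a gene relative to the library size, scaled within a cell type. All 10 microglia markers were read in all 12 microglia libraries. Their summed level was 1531 to 3722 CPM after saline and 846 to 1677 CPM after LPS. Neuron markers summed to 2499 to 4854 and 2763 to 3419 CPM in the same libraries, and oligodendrocyte markers to 1586 to 4798 and 2185 to 3082 CPM. The microglia libraries thus held reads of marker genes of other brain cells, and the source of these reads was not tested. Of uniquely aligned reads, 64.6% to 77.0% lay in no gene in microglia libraries and 20.5% to 26.9% in astrocyte libraries. In these bulk samples a smaller number of dividing cells and less RNA per dividing cell cannot be told apart. In 23 of 24 libraries Xist and Ddx3y fitted the labelled sex. The exception was microglia LPS control 1, labelled female, where Xist had 73 counts and Ddx3y, on the Y chromosome, had 251. By label, 2 of 6 saline and 4 of 6 LPS microglia libraries were female, and by transcripts 2 and 3 were.

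The cell cycle genes were read at low levels in every group and, within microglia, stood highest after LPS. In microglia the 24 mitosis genes summed to 109 ± 11.6 CPM in saline controls, 123 ± 7.71 in saline knockouts, 246 ± 55.7 in LPS controls and 353 ± 164 in LPS knockouts (SD, n = 3 each). The 14 S phase genes summed to 130 ± 13.8, 136 ± 17.2, 219 ± 35.7 and 296 ± 71.4 CPM in the same order. No LPS library of microglia overlapped a saline library in either sum. The mitosis sums were 100, 122 and 105 CPM in saline controls 1, 2 and 3, against 115, 124 and 131 for the saline knockouts. They were 246, 191 and 302 CPM in LPS controls, and 538, 228 and 293 in LPS knockouts. The wide spread of the LPS knockouts thus came from replicate 1, and the other 2 lay within the range of the LPS controls. The S phase sums were 140, 135 and 114 CPM in saline controls, 156, 123 and 129 in the saline knockouts, 198, 199 and 261 in LPS controls, and 350, 215 and 322 in LPS knockouts.

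**Figure D1:**
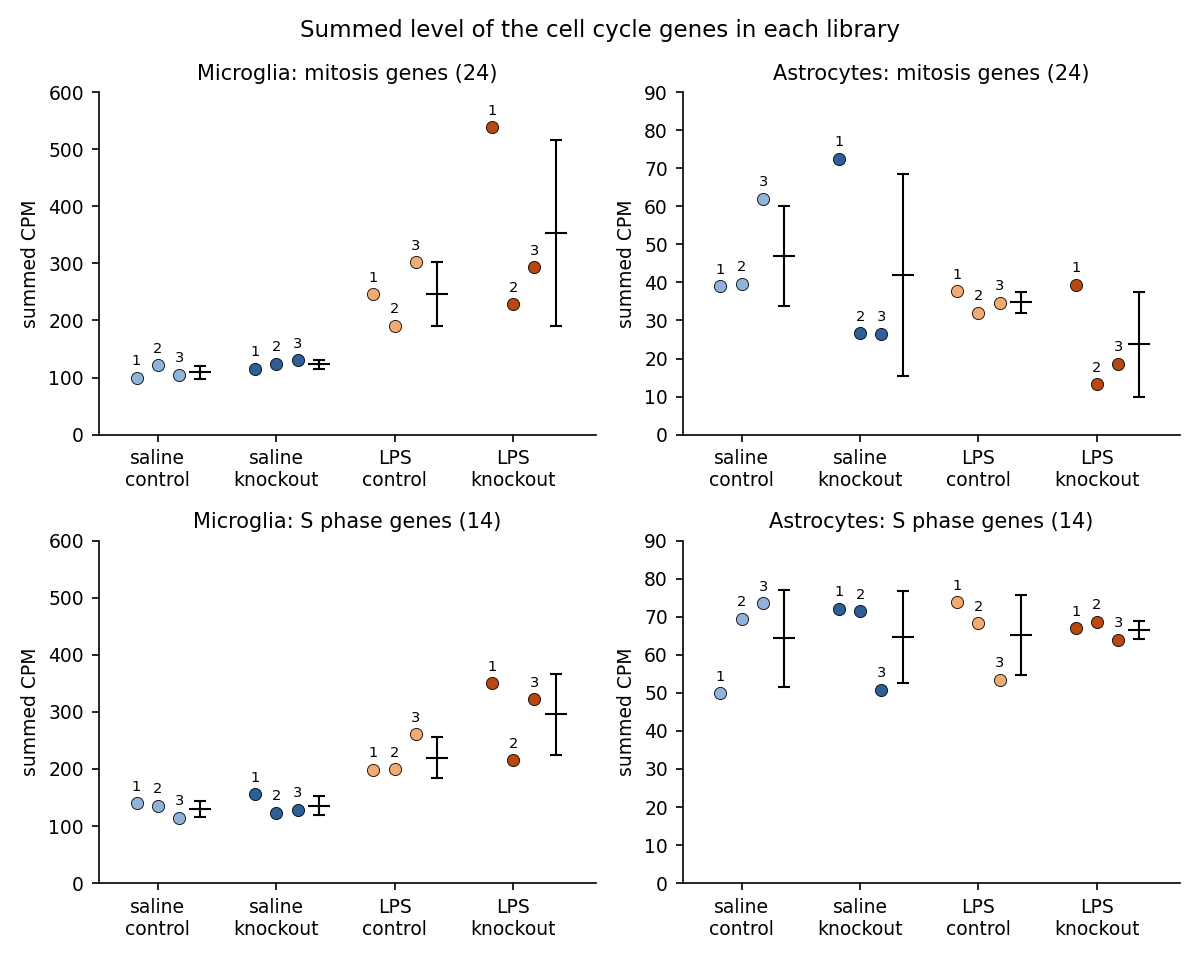
Summed CPM of the 24 mitosis genes and of the 14 S phase genes (y axes) in each of the 24 libraries, by group (x axes), with 1 panel for each cell type and list. Points are libraries, and the bar beside them is the mean with its SD over 3 libraries. In microglia all 6 LPS libraries lie above all 6 saline libraries in both sums, and LPS knockout 1 stands highest for mitosis at 538 CPM.

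As a ratio of group means, LPS libraries held 2.26 times the mitosis sum and 1.69 times the S phase sum of saline libraries in controls. In knockouts the ratios were 2.86 and 2.17, or 2.11 and 1.97 without LPS knockout 1. In controls the mitosis sum divided by the S phase sum was 0.714, 0.902 and 0.915 after saline and 1.24, 0.958 and 1.16 after LPS, so that the injections lay apart. In knockouts it was 0.741, 1.01 and 1.01 after saline and 1.54, 1.06 and 0.911 after LPS, and these overlapped. In astrocytes the mitosis sums were 26.5 to 72.5 CPM after saline and 13.2 to 39.3 after LPS, and the S phase sums were 49.8 to 73.6 and 53.4 to 73.7 CPM. The 10 most abundant genes took 47.7% to 66.4% of astrocyte counts and 7.91% to 19.4% of microglia counts, and the scaling was done within a cell type, so levels are not compared between the cell types.

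Promoters of 4 mitosis and 3 S phase genes are shown here. They were picked from members that rose with LPS in microglia in 1 or both genotypes (values follow). Motifs of the other called members are given with the whole windows below. Each promoter shown is the 160 bases before the start site in RefSeq, build GRCm38.p6, written 5′ to 3′ on the strand of the gene. Capitals mark matches, on either strand, to the CHR letters TTTGAA or TTCGAA, to CCAAT, and to the E2F-like letters TTCCCGCC, TTTGGCGC or TTTCCCGC.
Cdc20, chr4:118437344-118437503, minus strand: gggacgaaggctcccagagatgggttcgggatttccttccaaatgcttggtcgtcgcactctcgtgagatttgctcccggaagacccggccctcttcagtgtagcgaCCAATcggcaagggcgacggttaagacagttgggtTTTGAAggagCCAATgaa
Ube2c, chr2:164769769-164769928, plus strand: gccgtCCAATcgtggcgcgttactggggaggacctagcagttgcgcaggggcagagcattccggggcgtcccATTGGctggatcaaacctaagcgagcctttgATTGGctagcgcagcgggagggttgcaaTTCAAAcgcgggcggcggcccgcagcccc
Top2a, chr11:99024190-99024349, minus strand: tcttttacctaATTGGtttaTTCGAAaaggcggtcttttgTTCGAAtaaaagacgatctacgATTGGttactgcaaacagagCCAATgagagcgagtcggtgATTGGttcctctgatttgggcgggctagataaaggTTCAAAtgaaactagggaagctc
Cdk1, chr10:69352913-69353072, minus strand: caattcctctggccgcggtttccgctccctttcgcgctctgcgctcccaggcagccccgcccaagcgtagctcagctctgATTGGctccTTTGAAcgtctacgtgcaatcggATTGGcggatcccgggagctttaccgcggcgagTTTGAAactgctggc
Mcm5, chr8:75109349-75109508, plus strand: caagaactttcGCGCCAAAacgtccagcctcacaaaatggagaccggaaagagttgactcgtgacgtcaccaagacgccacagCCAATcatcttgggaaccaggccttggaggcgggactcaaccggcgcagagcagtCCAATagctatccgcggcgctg
Mcm6, chr1:128359706-128359865, minus strand: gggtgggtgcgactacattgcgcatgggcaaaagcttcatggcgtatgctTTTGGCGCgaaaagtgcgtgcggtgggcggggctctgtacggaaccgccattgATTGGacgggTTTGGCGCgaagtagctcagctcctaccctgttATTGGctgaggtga
Uhrf1, chr17:56303177-56303336, plus strand: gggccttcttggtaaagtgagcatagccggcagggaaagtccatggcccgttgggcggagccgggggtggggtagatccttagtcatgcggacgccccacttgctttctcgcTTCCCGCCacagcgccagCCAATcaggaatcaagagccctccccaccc
In these stretches Cdc20 and Ube2c held 1 CHR match each, Cdk1 held 2 and Top2a held 3, and none of these 4 held an E2F-like match. Mcm5 and Uhrf1 held 1 E2F-like match each and Mcm6 held 2, and none of these 3 held a CHR match. The number of CCAAT matches was 2 in Cdc20, 3 in Ube2c, 4 in Top2a, 2 in each of Cdk1, Mcm5 and Mcm6, and 1 in Uhrf1.

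Over the whole windows, from 250 bases before the start to 50 after it, both lists could be searched for most members. RefSeq gave windows for 20 of the 24 mitosis genes, 21 windows in all, and for 13 of the 14 S phase genes, 15 windows in all. Not covered were Aurkb, Ccna2, Kif20a, Tpx2 and Mcm4. CHR letters were in 16 of 21 mitosis windows and 3 of 15 S phase windows, against 19.2% of all 32851 windows. E2F-like letters were in 0 of 21 mitosis windows and 6 of 15 S phase windows, against 3.21% of all windows. CCAAT was in 18 of 21 and 12 of 15, against 37.4% of all. Among the called members not shown above, Aurka, Bub1b and Plk1 held CHR letters and Mcm3 held E2F-like letters. Birc5 and Tk1 held no match, Ccnb1 and Rrm2 held CCAAT alone, and Mcm2 held CHR and no E2F-like letters. Letters TTCGAA read the same on both strands and were counted once, and TTCCCGCC and TTTCCCGC can overlap by all but 1 base, when both were counted. The motifs are described, not tested, and a match is not a measured binding site.

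**Figure D2:**
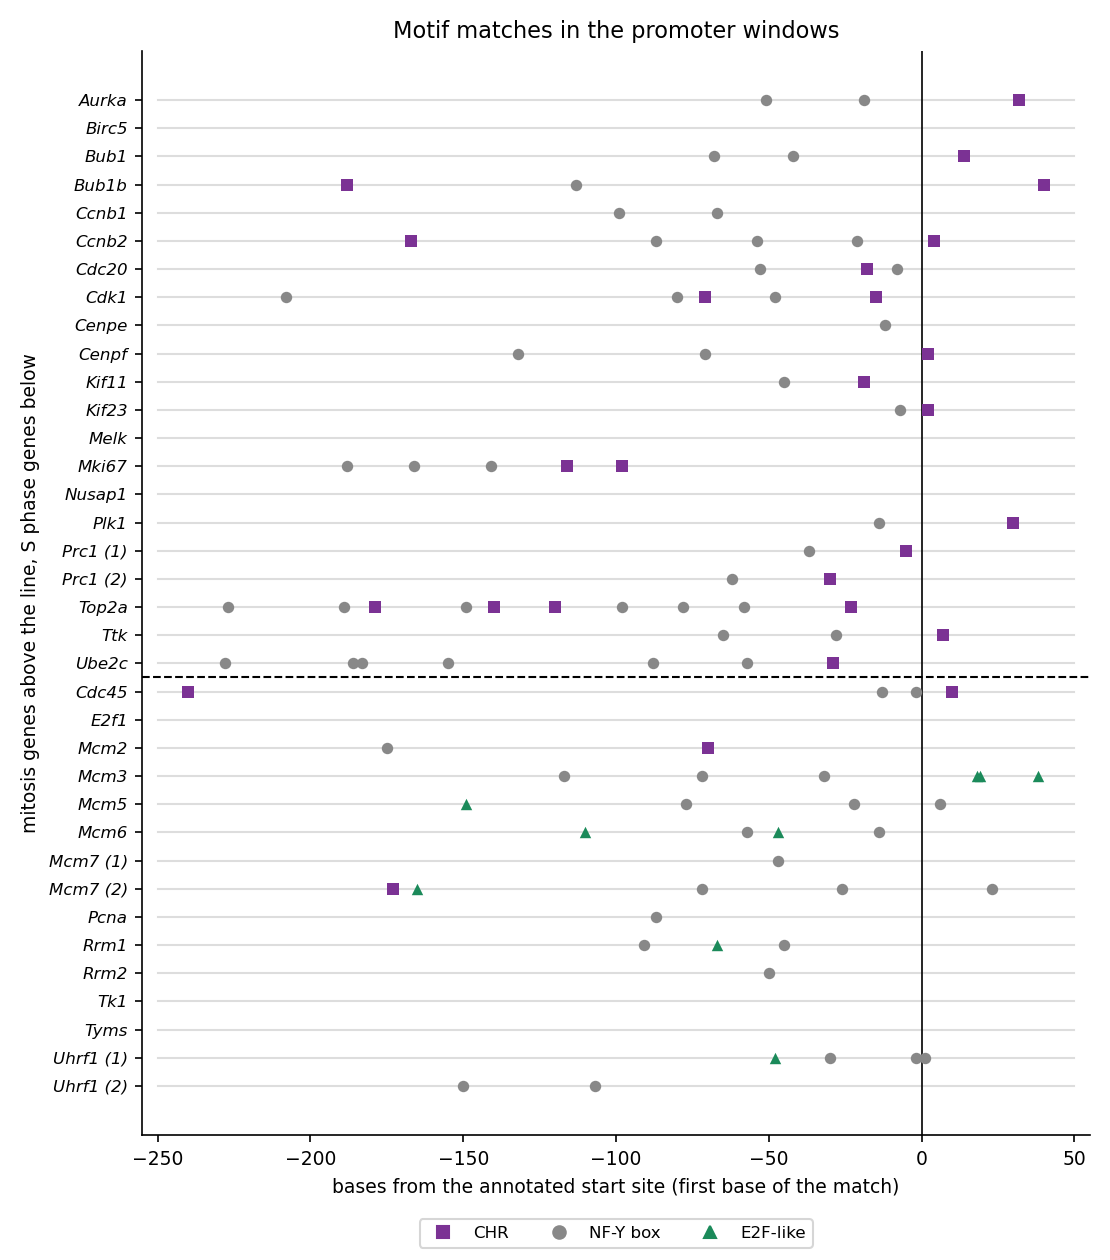
First base of each motif match (x axis, bases from the annotated start site, negative before it) in each promoter window of the mitosis genes above the dashed line and the S phase genes below it (y axis). Squares are CHR matches, circles are CCAAT matches (NF-Y box) and triangles are E2F-like matches. Triangles appear in S phase windows alone, in 6 of 15, and squares in 16 of 21 mitosis windows.

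Whether LPS moved these genes in microglia with working Serpine2 was asked first. In the control mice 9 of the 38 genes rose and none fell, at an adjusted p under 0.05 over all genes tested (edgeR quasi-likelihood), where 0.526% of the 22230 genes were called higher. The 9 were 6 mitosis genes (Cdc20, Ube2c, Aurka, Aurkb, Birc5 and Top2a) and 3 S phase genes (Mcm5, Uhrf1 and Tk1). All 38 fitted changes were above 0, with a median log2 fold change of 1.59 over the mitosis genes and 1.09 over the S phase genes, beside −0.05 over all genes. For 29 of the 38, 20 mitosis and 9 S phase, the 3 LPS libraries all lay above the 3 saline libraries, which held for 5.46% of all genes. Without a correction, 26 of the 38 had p under 0.05.

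In the knockout mice 18 of the 38 rose with LPS and none fell, where 1.01% of all genes were called higher. They were 11 mitosis genes and 7 S phase genes. Of these, 8 were also called in controls (Top2a, Birc5, Aurka, Aurkb, Cdc20, Mcm5, Tk1 and Uhrf1). Again all 38 fitted changes were above 0, with medians of 1.68 (mitosis) and 1.34 (S phase) beside −0.02 over all genes. In 31 of the 38, 19 mitosis and 12 S phase, the LPS libraries lay wholly above the saline libraries, beside 7.39% of all genes. The count of called genes changed with 1 library left out. It was 9, 5 and 8 without saline knockout 1, 2 and 3. It was 9 without LPS knockout 1, 20 without LPS knockout 2 and 11 without LPS knockout 3. The medians in these refits stayed above 0, at 1.32 to 1.94 (mitosis) and 1.28 to 1.46 (S phase). With sex from the labels as a covariate 9 were called in knockouts and 7 in controls.

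**Figure D3:**
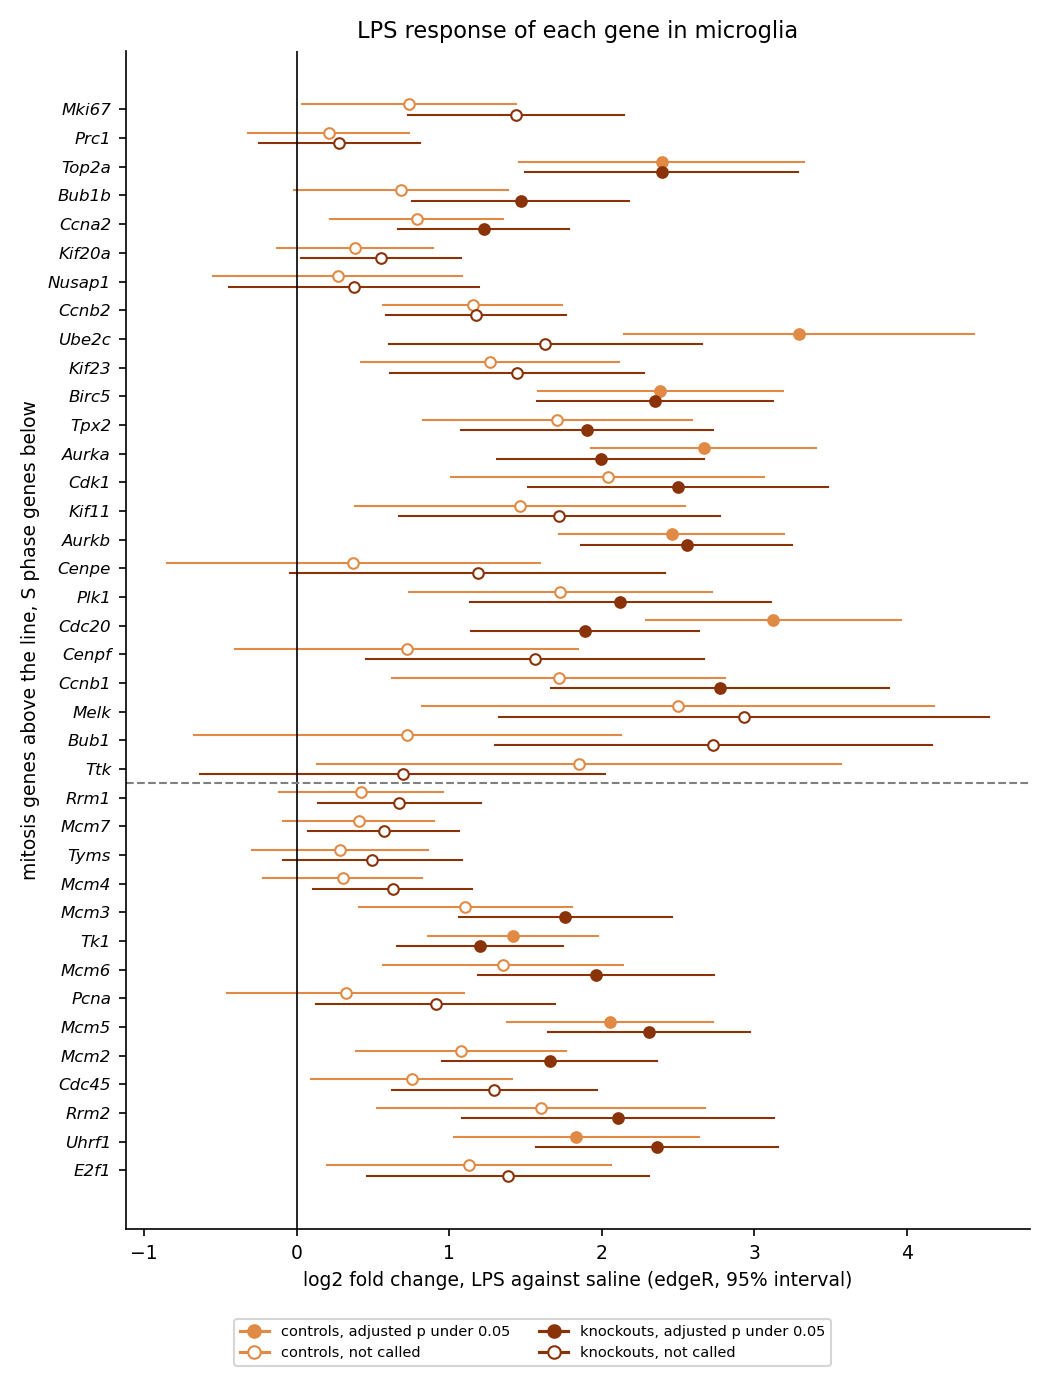
Fitted log2 fold change of LPS against saline (x axis, edgeR, with its 95% interval) for each gene (y axis) in microglia of controls and of knockouts. Filled points passed an adjusted p of 0.05, 9 in controls and 18 in knockouts, and all 38 points of each genotype lie to the right of 0.

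The largest fitted changes in controls were in genes that end mitosis. Cdc20 encodes the activator of the anaphase-promoting complex, the ubiquitin ligase that starts the separation of chromosomes. It was read at 0.689, 0.853 and 1.09 CPM in saline controls and at 5.94, 5.86 and 12.4 in LPS controls. The saline knockouts had 1.73, 2.30 and 2.29 CPM and the LPS knockouts 8.49, 6.98 and 8.29. All 6 LPS libraries lay above all 6 saline libraries, and the saline knockouts lay above the saline controls. With LPS, Cdc20 rose 8.74-fold in controls (log2 fold change 3.13, SE 0.39, edgeR adjusted p 0.00109) and by 1.89 log2 units in knockouts (SE 0.35, adjusted p 0.013). The saline control values rest on few reads, since the lowest library had 4.

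Ube2c, the ubiquitin-conjugating enzyme of the same complex, was read at 1.89, 0.171 and 1.99 CPM in saline controls and at 14.4, 6.48 and 21.7 in LPS controls. In knockouts it was 4.15, 3.41 and 4.58 CPM after saline and 16.1, 9.30 and 11.9 after LPS. The LPS and saline libraries did not overlap in either genotype. Ube2c rose with LPS in controls (3.29, SE 0.54, adjusted p 0.00668), and in knockouts its log2 fold change of 1.63 (SE 0.48) did not pass (adjusted p 0.173). Exons of Tnnc2 on the other strand cover 22.8% of its exonic bases, and whether the counting used the strand was not given.

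The Aurora kinases and survivin form and place the spindle and the chromosomal passenger complex. Aurka, the kinase of spindle poles, was read at 1.55, 1.88 and 1.36 CPM in saline controls, 2.25, 3.59 and 3.21 in the saline knockouts, 10.3, 6.41 and 13.6 in LPS controls and 11.9, 10.8 and 13.9 in LPS knockouts. No LPS library overlapped a saline library, and Aurka rose in controls (2.67, SE 0.35, adjusted p 0.00128) and in knockouts (1.99, SE 0.32, adjusted p 0.00447). Aurkb, the kinase of the passenger complex, had 1.21, 1.02 and 1.45 CPM in saline controls, 1.73, 2.21 and 2.06 in the saline knockouts, 6.09, 5.86 and 8.99 in LPS controls and 15.2, 8.04 and 12.3 in LPS knockouts. Its LPS libraries lay above all its saline libraries, with a rise of 2.46 (SE 0.35, adjusted p 0.0023) in controls and 2.56 (SE 0.32, adjusted p 0.00113) in knockouts. Birc5, which encodes survivin, the subunit that directs that complex to centromeres, had 1.89, 1.88 and 2.08 CPM in saline controls, 2.08, 2.21 and 4.01 in the saline knockouts, 9.92, 8.20 and 13 in LPS controls and 21.4, 9.73 and 11.5 in LPS knockouts. It too showed no overlap between injections, and it rose by 2.39 (SE 0.38, adjusted p 0.00515) and 2.35 (SE 0.36, adjusted p 0.00359).

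Top2a, the topoisomerase that untangles sister chromosomes, averaged 0.981 CPM per kb of exon after saline and 5.11 after LPS. It was read at 6.72, 7.68 and 3.26 CPM in saline controls, 11.4, 10.6 and 13.4 in the saline knockouts, 30.6, 21.8 and 38.3 in LPS controls and 109, 31.3 and 45.0 in LPS knockouts. The 4 groups overlapped only between LPS controls and LPS knockouts, and LPS knockout 1 stood far above the other libraries. The rise with LPS was 2.40 (SE 0.44, adjusted p 0.015) in controls and 2.39 (SE 0.42, adjusted p 0.0087) in knockouts.

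Mki67 encodes Ki-67, the common histological marker of cycling cells, and averaged 1.77 CPM per kb after saline and 3.87 after LPS. It was read at 16.9, 21.8 and 15.7 CPM in saline controls, 15.7, 18.5 and 18.4 in the saline knockouts, 33.1, 22.7 and 34.9 in LPS controls and 79.7, 29.2 and 34 in LPS knockouts. The LPS libraries lay above the saline libraries in both genotypes, yet the log2 fold changes of 0.74 in controls (SE 0.33, adjusted p 0.65) and 1.44 in knockouts (SE 0.33, adjusted p 0.0519) did not pass. Its fitted value in controls was thus 0.74, where that of Top2a was 2.40.

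The cyclins and their kinase drive entry into mitosis. Cdk1, the kinase itself, was given by library after its values had been seen. It was read at 1.72, 2.22 and 1.54 CPM in saline controls, 2.94, 1.66 and 3.09 in the saline knockouts, 4.58, 4.62 and 13.4 in LPS controls and 20.4, 9.09 and 13.3 in LPS knockouts, with no overlap between injections. Cdk1 rose in knockouts (2.5, SE 0.46, adjusted p 0.0127), and the value in controls was 2.04 (SE 0.48, adjusted p 0.0992). Ccna2, the A-type cyclin of S and G2, had 6.03, 6.48 and 6.33 CPM in saline controls, 7.96, 6.63 and 7.56 in the saline knockouts, 9.99, 10.3 and 12.3 in LPS controls and 24.1, 12.9 and 14.6 in LPS knockouts. Its injections lay apart. It rose in knockouts (1.23, SE 0.26, adjusted p 0.0341), with a value of 0.79 in controls (SE 0.27, adjusted p 0.41), and Exosc9 on the other strand covers 12.5% of its exonic bases.

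Of the B-type cyclins, Ccnb2 was the most abundant mitosis gene per length, at a mean of 3.94 CPM per kb of exon after saline and 8.90 after LPS. Its libraries read 5.34, 5.46 and 7.33 CPM in saline controls, 5.54, 4.97 and 7.56 in the saline knockouts, 15.6, 9.65 and 15.6 in LPS controls and 15.4, 12.7 and 12.8 in LPS knockouts. These did not overlap between injections, and the log2 fold changes were 1.16 (SE 0.27, adjusted p 0.102) and 1.18 (SE 0.28, adjusted p 0.0578), neither called. Ccnb1, the partner of Cdk1 at mitotic entry, was low, at a mean of 0.750 CPM in saline knockouts and 5.37 in LPS knockouts, and it rose there by 2.78 (SE 0.52, adjusted p 0.0132). The annotation holds pseudogene copies of Ccnb1 and Ccnb2 that could share reads with them.

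Genes of the spindle and its checkpoint divided into called and not called. Bub1b, the checkpoint protein BubR1, was read at 8.27, 5.46 and 11.5 CPM in saline controls, 5.54, 8.47 and 8.36 in the saline knockouts, 11.6, 11.9 and 17.8 in LPS controls and 27.2, 13.1 and 21.8 in LPS knockouts. Controls nearly touched, at 11.5 and 11.6 CPM, and Bub1b was called in knockouts alone (1.47, SE 0.33, adjusted p 0.0474, against 0.69 and 0.692 in controls), without a called difference between genotypes. Tpx2, a spindle assembly factor that activates Aurora A, and Plk1, the polo-like kinase, rose in knockouts by 1.90 (SE 0.39, adjusted p 0.0244) and 2.12 (SE 0.46, adjusted p 0.0373). In controls they had 1.71 (adjusted p 0.109) and 1.73 (adjusted p 0.183). Prc1, which bundles the central spindle, was read at 15.7, 25.6 and 16.0 CPM in saline controls, 18.5, 22.2 and 19 in the saline knockouts, 22.5, 22.7 and 20.8 in LPS controls and 31.6, 21.1 and 19.8 in LPS knockouts. The injections overlapped in both genotypes, with log2 fold changes of 0.21 (95% interval −0.32 to 0.74) and 0.28 (−0.25 to 0.81).

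Kif20a, a kinesin of cytokinesis, was read at 8.61, 8.53 and 10.5 CPM in saline controls, 7.44, 6.72 and 7.10 in the saline knockouts, 11.9, 11 and 13.4 in LPS controls and 8.24, 9.52 and 13.2 in LPS knockouts. The LPS libraries lay above the saline libraries of the same genotype, and neither 0.38 (adjusted p 0.799) nor 0.55 (adjusted p 0.607) passed. Cdc23 on the other strand covers 29.3% of its exonic bases. The remaining mitosis genes (Bub1, Cenpe, Cenpf, Kif11, Kif23, Nusap1, Ttk and Melk) passed in neither genotype. Their log2 fold changes ran from 0.27 in Nusap1, which bundles spindle microtubules, to 2.5 in the kinase Melk in controls, and from 0.38 to 2.93 in the same genes in knockouts. Melk was listed at 0 in 2 libraries, and Ttk, a checkpoint kinase, had at most 30 counts in any library. Cenpf and Ttk were the lowest per length, at 0.296 and 0.292 CPM per kb after LPS.

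**Figure D4:**
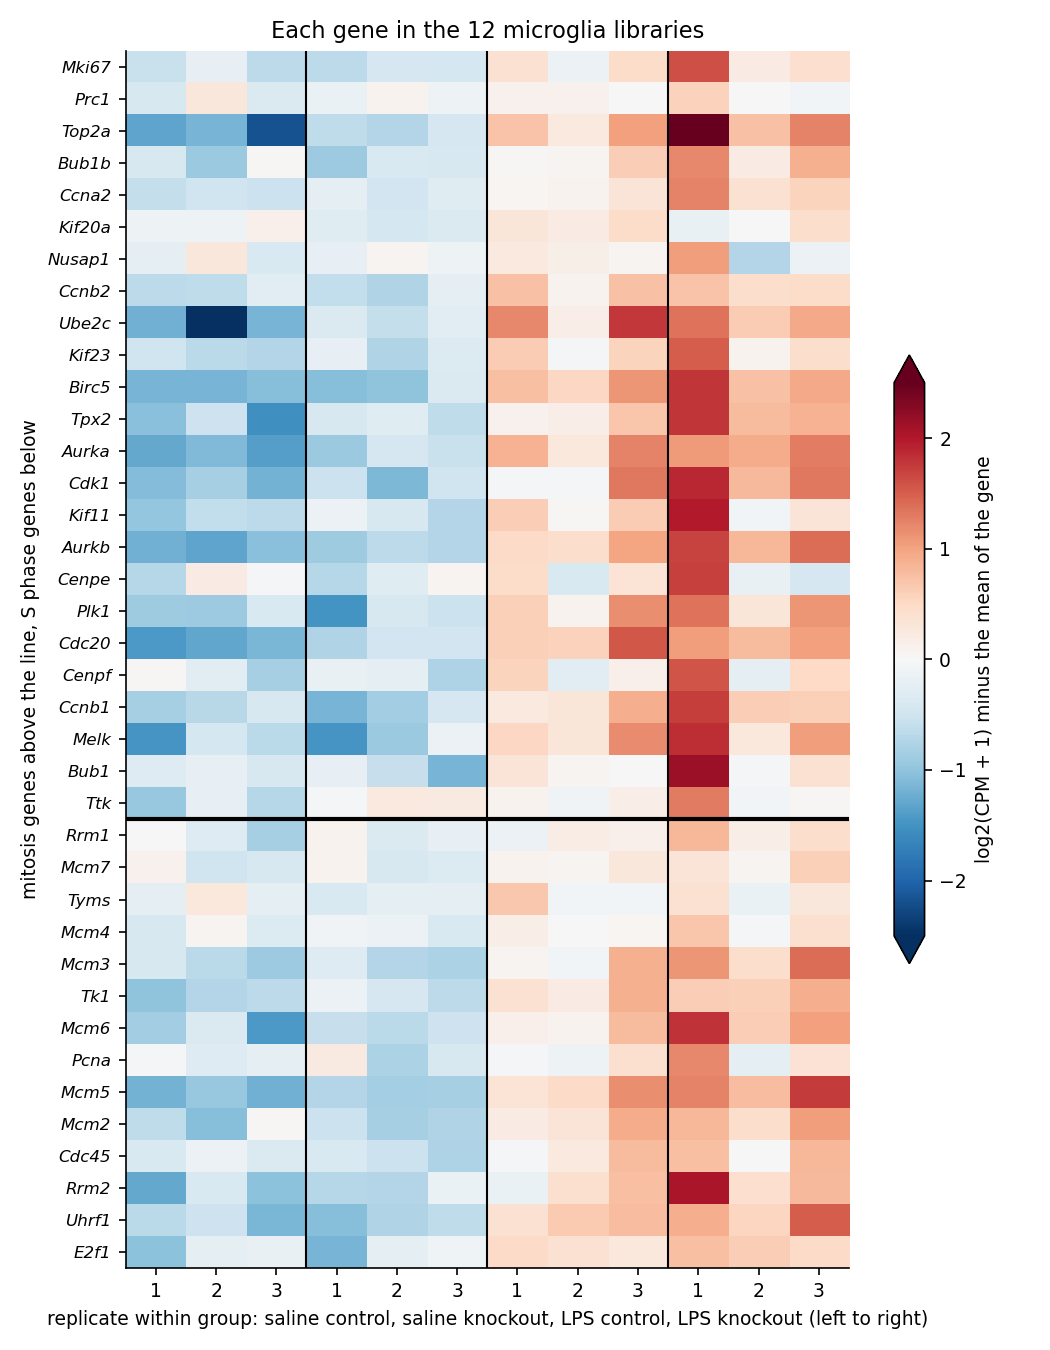
Level of each of the 38 genes (rows) in the 12 microglia libraries (columns, 3 per group), as log2 CPM relative to the mean of the gene. The 6 LPS columns on the right are higher than the saline columns for most rows, and LPS knockout 1 is the highest library for 25 of the 38 genes.

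Among the S phase genes the replication helicase MCM2 to MCM7 varied by subunit. Mcm5 was read at 3.79, 4.61 and 3.71 CPM in saline controls, 5.54, 5.06 and 5.15 in the saline knockouts, 12.7, 14.1 and 23.4 in LPS controls and 24.7, 17.6 and 35.5 in LPS knockouts. Its injections did not overlap, and it rose by 2.05 (SE 0.32, adjusted p 0.00421) in controls and by 2.31 (SE 0.31, adjusted p 0.00138) in knockouts. Mcm3 had 9.64, 7.85 and 6.51 CPM in saline controls, 10.4, 7.45 and 7.21 in the saline knockouts, 13.8, 12.5 and 25.2 in LPS controls and 29.3, 18.2 and 36.3 in LPS knockouts. The LPS libraries lay above all saline libraries. It rose in knockouts (1.76, SE 0.33, adjusted p 0.0131) and stood at 1.11 in controls (adjusted p 0.275). Mcm6 and Mcm2 also rose in knockouts, by 1.96 (SE 0.36, adjusted p 0.0129) and 1.66 (SE 0.33, adjusted p 0.0214), with 1.36 (adjusted p 0.191) and 1.08 (adjusted p 0.285) in controls.

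The other helicase subunits, Mcm4 and Mcm7, did not pass in either genotype. Mcm7 was the most abundant S phase gene per length, at 5.35 CPM per kb after saline and 7.50 after LPS. It was read at 29.8, 19.4 and 20.8 CPM in saline controls, 29.6, 20.7 and 21.8 in the saline knockouts, 29.4, 29.2 and 34.2 in LPS controls and 35.0, 29.2 and 42.2 in LPS knockouts, so that the injections overlapped. The log2 fold changes of Mcm7 were 0.41 (95% interval −0.09 to 0.90) and 0.57 (0.07 to 1.07). Mcm4 had 10.2, 14.5 and 10.6 CPM in saline controls, 12.8, 12.3 and 10.3 in the saline knockouts, 15.5, 13.7 and 14.1 in LPS controls and 22.9, 13.3 and 18.3 in LPS knockouts. Mcm4 had log2 fold changes of 0.30 (−0.22 to 0.82) and 0.63 (0.11 to 1.15), and its injections overlapped in controls. Cdc45, which binds the helicase to make it active, had 0.75 (adjusted p 0.619) and 1.30 (adjusted p 0.0673).

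The enzymes of nucleotide supply differed in the same way. Tk1, the thymidine kinase of S phase, was read at 5.51, 6.82 and 7.33 CPM in saline controls, 10.7, 8.74 and 7.33 in the saline knockouts, 15.9, 14.1 and 23.1 in LPS controls and 19.1, 18.6 and 23.6 in LPS knockouts. The injections lay apart, with rises of 1.42 (SE 0.26, adjusted p 0.0151) and 1.20 (SE 0.26, adjusted p 0.0328). Rrm1, the large subunit of ribonucleotide reductase, was read at 37.5, 29.5 and 20.4 CPM in saline controls, 39.5, 28.4 and 32.1 in the saline knockouts, 33.6, 42.5 and 40.7 in LPS controls and 67.1, 41.4 and 50.4 in LPS knockouts. In controls its injections overlapped, and the values of 0.42 (adjusted p 0.778) and 0.67 (adjusted p 0.396) did not pass. Rrm2, the small subunit, which is made in S phase, rose in knockouts by 2.11 (SE 0.48, adjusted p 0.0482), with 1.60 in controls (adjusted p 0.328). This call of Rrm2 was lost under 9 of 15 alternatives, where its adjusted p reached 0.245.

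Tyms, thymidylate synthase, was read at 11.9, 17.2 and 11.8 CPM in saline controls, 10.6, 12.0 and 11.9 in the saline knockouts, 23.0, 13.3 and 13.4 in LPS controls and 18.6, 12.5 and 17.4 in LPS knockouts. Its log2 fold changes were 0.28 (95% interval −0.29 to 0.86) and 0.50 (−0.09 to 1.08), and the control injections overlapped. Pcna, the sliding clamp of DNA polymerases, had 0.32 (−0.45 to 1.10) and 0.91 (0.13 to 1.70), with adjusted p 0.956 and 0.482. Pseudogene copies of Tyms and Pcna are annotated too. Uhrf1, which recognises newly copied DNA to maintain its methylation, was read at 1.89, 2.22 and 1.09 CPM in saline controls, 1.21, 1.75 and 1.95 in the saline knockouts, 4.96, 6.20 and 6.85 in LPS controls and 7.62, 5.71 and 12.2 in LPS knockouts. Uhrf1 showed no overlap between injections and rose by 1.84 (SE 0.38, adjusted p 0.0396) and 2.36 (SE 0.37, adjusted p 0.00407). The call in controls was lost without each of the 6 control libraries in turn, with an adjusted p of up to 0.205. E2f1, the transcription factor, had 1.13 (adjusted p 0.563) and 1.39 (adjusted p 0.219).

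The called genes were not equally firm under 15 alternatives, which were other settings or 1 library left out. In controls Cdc20, Ube2c, Aurka, Aurkb, Birc5 and Mcm5 kept their calls under all 15, while Top2a lost its call under 3, Tk1 under 4 and Uhrf1 under 8. In knockouts 5 of 18 kept their calls under all, namely Aurka, Aurkb, Birc5, Mcm5 and Uhrf1. Top2a lost its call there under 1 alternative, Cdk1 and Ccnb1 under 3 (of 14 for Ccnb1), Cdc20, Mcm3 and Mcm6 under 4, and Tpx2 and Mcm2 under 5. Bub1b and Plk1 lost theirs under 7, Ccna2 and Tk1 under 8 and Rrm2 under 9. None of these genes changed direction.

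Marker genes of other cells moved beside these members. Summed T and NK cell markers were 3.96 to 6.78 CPM in the 6 saline and 16.5 to 40.6 CPM in the 6 LPS microglia libraries. Of that list 4 of 10 genes passed the filter. Gzma, a granzyme of NK and cytotoxic T cells, made up 6.46 to 30.7 CPM of that after LPS and 0.0905 to 1.60 CPM after saline, and it was called higher in both genotypes. Of the other NK cell markers, Nkg7 was 0 to 0.995 CPM after saline and 1.28 to 3.32 after LPS. Klrb1c was 0 to 0.346 and 0.375 to 1.27 CPM, so both lay apart by injection at low levels. Ncr1 (0 to 1.02 and 0.642 to 2.00 CPM) overlapped between injections, as did Cd4, Cd8a and Trac. The T cell markers Cd3e, Cd3d and Cd3g were at most 0.874 CPM, each at 0 in 2 or more of the 12 libraries. Endothelial markers summed to 27.7 to 30.5 CPM after saline and 31.3 to 33.8 after LPS in controls, and to 27.4 to 31.8 and 33.2 to 42.0 in knockouts, so that the injections lay apart in both. Monocyte markers summed to 163 to 218 CPM after saline and 156 to 318 after LPS, with Treml4 called higher in both genotypes and Plac8 in controls. The largest in that list were Vcan (54.3 to 100 and 40.6 to 115 CPM), also listed for oligodendrocyte precursors, and Fn1 (47.5 to 83.7 and 50.2 to 107 CPM). Ly6c2 (5.79 to 13.2 and 6.39 to 12.3 CPM) and Ccr2 (2.07 to 9.55 and 1.68 to 11.1 CPM) overlapped between injections. Neutrophil markers summed to 484 to 1877 CPM after saline and 335 to 985 after LPS, and granulocyte precursor markers to 271 to 803 and 92.1 to 308 CPM. In the precursor list Ngp, Ltf and Camp reached 383, 196 and 139 CPM after saline. Elane, Prtn3, Ctsg, Ms4a3 and Gfi1 of that list were at most 9.16 CPM in any microglia library. Other members were higher, as Fcnb reached 9.62 and Mpo 24.02 CPM after saline, and Chil3 reached 70.18 CPM after LPS. For scale, the cell cycle gene Cdc20 was at 0.689 to 2.30 CPM in the saline microglia libraries. Erythroid markers summed to 47.9 to 161 and 31.3 to 41.9 CPM. All 10 microglia markers had fitted changes below 0 in both genotypes, of which Slc2a5, P2ry12 and Gpr34 were called lower in both. The part of these cells in the rise of the cell cycle genes was not tested.

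LPS knockout 1 was the highest of the 12 microglia libraries for 25 of the 38 genes, 19 of mitosis and 6 of S phase. LPS knockout 3 was highest for 8, 7 of them S phase genes. The same library, LPS knockout 1, had the highest sums of monocyte markers (318 CPM), border macrophage markers (130 CPM), endothelial markers (42.0 CPM) and T and NK cell markers (40.6 CPM) and the lowest of microglia markers (846 CPM). Without it, the median log2 fold change of the mitosis genes with LPS in knockouts was 1.32 in place of 1.68. Its part in the other differences is given beside them.

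The loss of Serpine2 was then compared within each injection in microglia, in groups that also served in the LPS comparisons. After saline none of the 38 genes was called, and 0% of all 22230 genes were. DESeq2 called none either, and 5 of the 38 had an unadjusted p under 0.05, all mitosis genes and all higher in knockouts. These were Cdc20 (log2 fold change 1.23, p 0.0109), Ube2c (1.49, p 0.0177), Aurka (0.96, p 0.0189), Ttk (2.05, p 0.0242) and Top2a (1.04, p 0.0322), by edgeR before adjustment, with adjusted p of 1. The 3 knockout libraries lay above the 3 control libraries for 9 of the 38 genes (Ube2c, Mcm5, Cdc20, Aurkb, Top2a, Tk1, Aurka, Ccna2 and Ttk), which held for 2.53% of all genes. They lay wholly below for 1, Kif20a, which held for 1.71% of all genes. The median log2 difference was 0.21 over the mitosis genes, with 15 of 24 above 0, and 0.04 over the S phase genes, with 9 of 14 above 0, beside −0.05 over all genes. Cdc20 and Ube2c had at most 22 counts in any saline control library. Markers of other cells also lay apart by genotype after saline. Granulocyte precursor markers summed to 472 to 803 CPM in saline knockouts and 271 to 301 in saline controls, and neutrophil markers to 997 to 1877 and 484 to 641 CPM. Elane, Prtn3, Ctsg, Ms4a3 and Gfi1 of the precursor list were at most 9.16 CPM, and Fcnb, Mpo and Chil3 reached 9.62, 24.02 and 45.01 CPM after saline. The part of these cells in the genotype difference was not tested.

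After LPS none of the 38 genes differed between knockouts and controls at an adjusted p under 0.05 in edgeR, where 0% of all genes did, nor did DESeq2 call any. At an unadjusted p under 0.05 there were 10 genes, all higher in knockouts. The smallest was that of Aurkb (0.78, 95% interval 0.17 to 1.40, edgeR unadjusted p 0.0163), and the others were Tpx2, Mcm6, Top2a, Ccna2, Bub1, Mcm3, Cdk1, Rrm2 and Mcm5. The share of all genes under that p and the count without LPS knockout 1 are not given here. The knockout libraries lay wholly above the control libraries for 3 genes, Tpx2, Ccna2 and E2f1, beside 2.52% of all genes. The median log2 difference was 0.63 over the mitosis genes, with 21 of 24 above 0, and 0.39 over the S phase genes, with 13 of 14 above 0, beside 0.00 over all genes. Without LPS knockout 1 the mitosis median was 0.0806, and the ratio of the mitosis sums, knockout to control, was 1.06 in place of 1.43. For S phase that ratio was 1.22 in place of 1.35. Monocyte markers, of which Vcan and Fn1 were the largest, summed to 202 to 318 CPM in LPS knockouts and 156 to 193 in LPS controls. Granulocyte precursor markers lay apart in the other direction, at 92.1 to 274 CPM in LPS knockouts and 286 to 308 in LPS controls. The part of these cells in the difference was not tested.

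Whether the response to LPS itself differed by genotype was tested as an interaction. No member passed, with 0% of all genes called and none of the 38 in DESeq2. Cdc20 (−1.24, SE 0.53, edgeR unadjusted p 0.0334) and Ube2c (−1.66, SE 0.71, unadjusted p 0.0346) had p under 0.05 before adjustment, both with the smaller change in knockouts. Their levels after LPS overlapped between genotypes, at 5.86 to 12.4 CPM against 6.98 to 8.49 for Cdc20, and their saline levels did not overlap. No gene that was called in knockouts alone had a called difference from controls. For Cdk1 the difference was 0.46 (95% interval −0.96 to 1.89), for Bub1b 0.78 (−0.21 to 1.78) and for Mcm3 0.66 (−0.32 to 1.63). Without LPS knockout 1 these 3 values were 0.0899, 0.50 and 0.61. The median difference over the mitosis genes turned from 0.19 to −0.19 without that library, and that over the S phase genes went from 0.42 to 0.14.

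**Figure D5:**
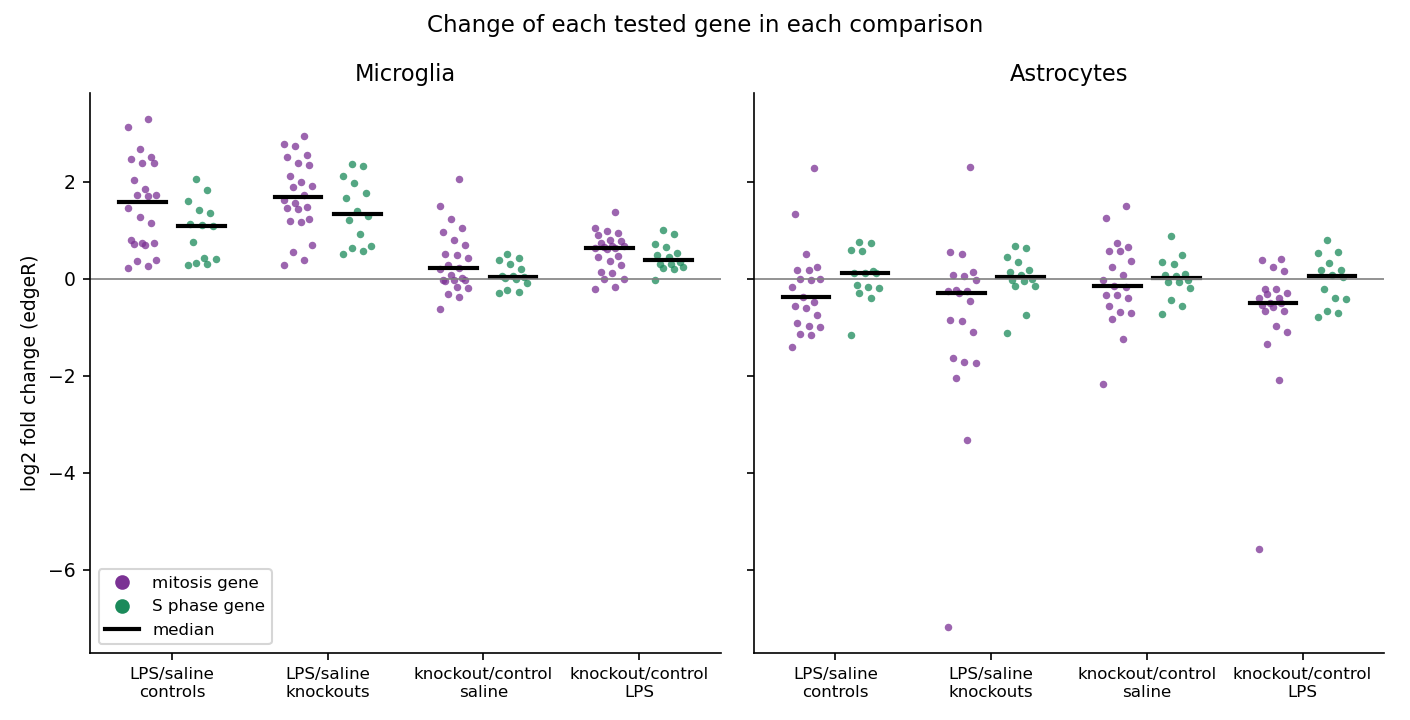
Fitted log2 fold change (y axis, edgeR) of each tested gene in the 4 pairwise comparisons (x axis) of microglia (38 genes) and astrocytes (35 genes), with mitosis and S phase genes in different colours and a bar at each median. In microglia both LPS medians lie above 1, and in astrocytes the medians lie between −0.50 and 0.12.

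The same genes were read in astrocytes, where 3 of them (Bub1, Ccnb1 and Ttk) did not pass the filter. Between LPS and saline none of the 35 tested was called in controls, where 0.929% of all 18188 genes were called in either direction, nor in knockouts, where 1.56% were. Before adjustment, 2 genes in controls and 4 in knockouts had p under 0.05. DESeq2 gave 0 calls in controls and 2 in knockouts, and the share of all genes it called is not given here. The median log2 fold change of the mitosis genes was −0.37 in controls and −0.29 in knockouts, and that of the S phase genes 0.12 and 0.03. With 1 library left out the mitosis medians were −0.66 to −0.0206 in controls, the latter without saline control 3, and −1.31 to −0.0999 in knockouts, without LPS knockout 1 and saline knockout 1. The S phase medians took either sign, at −0.11 to 0.25 and −0.17 to 0.21. For single genes the spread between astrocyte libraries was wide. Mki67 was read at 4.13, 6.01 and 13.7 CPM in saline controls, 15.3, 2.29 and 3.58 in the saline knockouts, 5.18, 6.43 and 4.61 in LPS controls and 4.30, 0.861 and 1.07 in LPS knockouts. The 4 groups overlapped, except that the LPS knockouts lay below the LPS controls. The log2 fold change in knockouts was −1.75 (adjusted p 0.267).

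Top2a in astrocytes had 6.12, 8.02 and 13.6 CPM in saline controls, 11.4, 3.17 and 2.51 in the saline knockouts, 5.04, 3.58 and 3.95 in LPS controls and 4.96, 1.94 and 2.55 in LPS knockouts. The LPS controls lay below the saline controls, and the value of −1.13 (adjusted p 0.42) did not pass. Pcna, named here after its values were seen, was read at 13.5, 17.2 and 16.4 CPM in saline controls, 14.1, 13.7 and 13.3 in the saline knockouts, 15.3, 16.9 and 9.47 in LPS controls and 19.7, 16.0 and 16.1 in LPS knockouts. The LPS knockouts lay above the saline knockouts, and the controls of both injections overlapped. Cdk1 had 0 counts in all 3 LPS knockout astrocyte libraries. A floor of 3 counts per library corresponds to a mean of 0.142 CPM there. The mean was 6.75-fold above that floor in saline knockouts (0.956 CPM) and 2.25-fold above it in LPS controls (0.318 CPM). A saline knockout library was also at 0, so the knockouts of both injections overlapped and 6.75 compares means alone. Cdk1 did not pass between injections (edgeR adjusted p 0.0827).

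Between genotypes no member was called in astrocytes either, with 0.0055% of all genes called after saline and 0.0055% after LPS. Before adjustment 0 and 1 members had p under 0.05, and DESeq2 gave no call. The interaction in astrocytes called 0% of all genes and no member, with 1 member at an unadjusted p under 0.05 and none in DESeq2. The medians of the mitosis genes, knockout against control, were −0.14 after saline and −0.50 after LPS. The saline median was 0.35 without saline control 3 and 0.17 without saline knockout 2, against −0.63 without saline knockout 1, so its sign rested on single libraries. The LPS median ran from −1.17 without LPS knockout 1 to −0.19.

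The LPS response in microglia minus that in astrocytes was tested over all 24 libraries. In controls it was called for 1 member, Top2a (3.55, SE 0.74, edgeR adjusted p 0.036), where 0.0203% of 24607 genes were called higher. In knockouts it was called for 1 member, Cdk1 (adjusted p 0.00912), where 0.0488% were, and Top2a stood at 3.23 (SE 0.73, adjusted p 0.0517). The size for Cdk1 depends on the prior count, since its astrocyte LPS knockout libraries were at 0. The difference was above 0 for 35 of the 38 genes in controls and 37 in knockouts, with medians of 2.01 and 2.22 over the mitosis genes and 0.80 and 1.30 over the S phase genes. For most members, then, the difference between cell types was not called. The count in controls was 0 without each of 10 of the 12 control libraries and 2 without astrocyte LPS control 3, and in knockouts it was 3 without astrocyte saline knockout 3 or LPS knockout 1 and 2 without microglia LPS knockout 2. Without microglia LPS knockout 1 the knockout medians were 2.20 and 1.27, Cdk1 was still called (adjusted p 0.0257) and Top2a stood at 2.54 (adjusted p 0.17). The cell types also differ in brain region, in preparation and in gene annotation, and these cannot be told apart.

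The other genes of the cell cycle, from lists that exclude the 38, moved in the same direction in microglia where they were called. These lists too were chosen with earlier results of these data known. In controls 6 of 36 tested further mitosis genes rose with LPS and none fell, where 0.526% of all genes were called higher. The 4 with the smallest p were Cdca5 (sororin, which holds sister chromatids together, log2 fold change 4.8), Kif2c (a kinesin that takes microtubules apart, 2.86), Cdca3 (2.18) and Kif18b (2.48). In knockouts 12 of 36 rose, where 1.01% of all genes were called higher. They were led by Cdca3 (2.59), Kif2c (2.58), Cdca8 (borealin, of the passenger complex, 2.01) and Cdca5 (2.75). Of 33 further S phase genes 0 were called in controls and 5 in knockouts, led by the chromatin assembly subunit Chaf1b (2.75), the helicase partner Gins2 (2.62), the origin licensing factor Cdc6 (2.10) and Mcm10 (1.41). The 0 calls in controls lie near the share over all genes. At an unadjusted p under 0.05 there were 8 further S phase genes in controls, and the share of all genes under that p is not given here.

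For regulators of entry into the cycle the lists were short, and 0 calls in them lie near the share over all genes. That share, called higher with LPS in microglia, was 0.526% in controls and 1.01% in knockouts. None of the 18 tested G1 regulators, 8 inhibitors of cyclin-dependent kinases and 5 linker histones passed in microglia with LPS in either genotype, and 1, 2 and 2 of them had an unadjusted p under 0.05 in controls, against 0, 2 and 2 in knockouts. Ccnd1, cyclin D1, had −0.23 and 0.23, and Cdkn1a, the inhibitor p21, had 1.10 (adjusted p 0.46) and 1.05 (adjusted p 0.396). Of 7 tested genes of the colony-stimulating factors and their receptors, none was called in controls (3 at an unadjusted p under 0.05) and 1 in knockouts, Csf2rb, the shared beta subunit of several cytokine receptors (1.44, SE 0.27, adjusted p 0.0155). Csf1r, the receptor on which microglia depend for survival, had −0.33 (adjusted p 0.956) and −0.36 (adjusted p 0.932), and its ligand Csf1 had 0.19 in both. In astrocytes none of these 6 lists had a called gene in either LPS comparison. There 0.929% of all genes in controls and 1.56% in knockouts were called in either direction, and 0 calls lie near those shares. In astrocytes Cdkn1a was read at 786, 628 and 52.5 CPM in LPS controls and 1248, 369 and 82.2 in LPS knockouts. All of these lay above the 8.38 to 19.4 CPM of the 6 saline libraries. Its fitted changes of 5.54 (SE 1.25, adjusted p 0.0946) and 5.49 (SE 1.24, adjusted p 0.0773) did not pass, and in both groups replicate 3 lay far below the other 2. At an unadjusted p under 0.05 there were 3 and 2 further mitosis genes, 2 and 1 further S phase genes and 3 and 4 kinase inhibitors in controls and knockouts. The share of all genes under that p is not given here.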

How the data were processed

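Whole-number read counts per Ensembl gene were deposited by the authors for 24 libraries, 3 in each of 8 groups, with no normalisation, as checked on the tables. The authors' aligner was STAR 2.6.0c and their counter HTSeq (no version), per the submitters' processing notes, which name both GRCm38 and GRCm39 with no role. Strand setting and annotation release were not given in the sources used here. Reads in no gene, 64.6% to 77.0% of the reads that fell in 1 gene, several or none in microglia libraries and 20.5% to 26.9% in astrocyte libraries, stayed out of library sizes and tests.

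Counts were fitted with edgeR 4.0.16 (R 4.3.3, limma 3.58.1) over the 12 libraries of a cell type, or all 24 for differences between cell types. Genes were kept by filterByExpr (minimum count 10, minimum total 15), libraries were scaled by TMM, and contrasts of the group means were tested two-sided by robust quasi-likelihood. Calls were made where the p adjusted by Benjamini-Hochberg over the whole table was under 0.05. Counts at an unadjusted p under 0.05 are not calls, and the share of all genes under it is not given. The code was tested on simulated data. SE is that of the fitted log2 fold change, and intervals are 95%. CPM per kb used exon lengths of GENCODE M21 on GRCm38. The labels name no molecular identifiers, so floors cover counting error only.

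The members and lists were chosen with earlier results of these data known. Levels by library are given for the 7 mitosis and 5 S phase genes with the highest mean CPM in microglia and 8 further called genes with the smallest p. From the other lists up to 4 called genes with the smallest p were named, and Cdkn1a, Ccnd1, Csf1 and Csf1r always. Alternatives were RLE factors, library totals, no filter, a minimum count of 50, sex from the labels, the replicate block, only the groups compared, DESeq2 1.42.0 and each library left out. Sex read from transcripts was added after seeing the data. The series text speaks of pairs of siblings, but no label ties a replicate number to a pair. Labelled sex matched in 3 of 3 numbers between genotypes in saline microglia, LPS microglia and LPS astrocytes and in 1 of 3 in saline astrocytes. Same-numbered libraries of both genotypes were not taken as pairs, since their deviations correlated over 0.1 in all 3 numbers in LPS astrocytes alone (0.157 to 0.354), against −0.112 to 0.442 in saline microglia, −0.167 to 0.324 in LPS microglia and −0.0998 to 0.00709 in saline astrocytes.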

Additional observations from a re-analysis of the deposited data

Results flagged for a closer look

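The LPS response of Top2a was 3.55 log2 units higher in microglia than in astrocytes of control mice (edgeR adjusted p 0.036), a difference between cell types that was itself tested. The call was lost without most single control libraries and with sex from the labels. Brain region, preparation and gene annotation differ with the cell type. The same difference for Cdk1 was 10.1 in knockouts (edgeR adjusted p 0.00912), a value that depends on the prior count because all 3 LPS knockout astrocyte libraries had 0 counts.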

How the results depend on the processing

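No result changed direction past the threshold under any alternative run. The number of members called with LPS in microglia of controls was 9, and 21 with no filter, 14 with DESeq2 and 6 to 9 with 1 library left out. In knockouts it was 18, and 9 with sex from the labels, 27 with no filter, 26 with DESeq2 and 5 to 20 with 1 library left out. In astrocyte knockouts it was 0, and 3 with no filter and 2 with DESeq2. For the microglia minus astrocyte response it was 1 in controls, and 3 with no filter, 0 with sex from the labels, 4 with DESeq2 and 0 to 2 with 1 library left out. In knockouts it was 1, and 8 with no filter, 2 with a minimum count of 50, 6 with DESeq2 and 1 to 3 with 1 library left out. With the replicate block it was 2 there, with Top2a gained, and 9 and 19 in microglia controls and knockouts with LPS, where Rrm2 was lost in knockouts (adjusted p 0.0743) and Ccnb2 and Bub1 were gained. The block changed no other call. The share of all genes called under each alternative is not given here. A setting that calls more genes of all kinds can therefore not be told apart from one that moves the members.

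Medians with 1 library left out ranged as follows. In microglia with LPS, S phase in controls was 0.81 to 1.19 and mitosis in knockouts 1.32 to 1.94. For knockout against control, mitosis was 0.20 to 0.40 after saline (0.39 with a minimum count of 50), S phase −0.0404 to 0.23 after saline, and mitosis 0.0806 to 0.87 after LPS, and the genotype difference was −0.19 to 0.44 for mitosis and 0.14 to 0.62 for S phase. In astrocytes with LPS, S phase was −0.11 to 0.25 in controls and −0.17 to 0.21 in knockouts, and mitosis −0.66 to −0.0206 in controls and −1.31 to −0.0999 in knockouts. After saline, knockout against control was −0.63 to 0.35 for mitosis and −0.20 to 0.20 for S phase. After LPS, knockout against control was −1.17 to −0.19 for mitosis and −0.21 to 0.16 for S phase, and the genotype difference −0.93 to 0.0819 and −0.26 to 0.42. For microglia minus astrocytes, mitosis was 1.68 to 2.23 in controls and 1.98 to 3.42 in knockouts, and S phase in controls 0.58 to 1.08. The cause of these changes was not tested. Low counts limit the values of Cdc20, Ube2c, Ttk and Melk in saline microglia, and of most mitosis genes in astrocytes.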
